A study of Mus musculus with 6 samples.

Results

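The genes described here are 8 transcripts of interneurons born in the medial ganglionic eminence (MGE), the ventral forebrain zone that supplies many inhibitory neurons of the cortex. They were taken by symbol from the count table, where Nkx2-1, Lhx6, Sst, Sox6, Satb1, Npas1, Elfn1 and Calb1 are 8 of 36291 gene rows, and each of the 8 passed the filter on low counts. The study removed Sip1, the gene now called Zeb2, which encodes a zinc finger homeobox repressor, from cells of the Nkx2-1 lineage and asked how migrating cortical interneurons depend on it. Poly-A RNA was sequenced from eGFP+ cells sorted from the telencephalon of Swiss embryos at E14.5, with 3 wild-type (WT) and 3 knockout (KO) libraries. In both groups the sorted cells were those marked through an Nkx2-1-iCre driver, so both carry the driver, and the gate itself rests on the promoter of one of the 8 genes. Library titles carry the numbers K77, K79 and K80, each once per genotype, whose meaning the labels do not give. The labels give neither the deleted part of Zeb2 nor the origin of the eGFP.

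Nkx2-1 is a homeobox factor that gives MGE progenitors their identity and is needed for the expression of Lhx6. Lhx6, a LIM-homeobox factor, is kept on as the young neurons leave the MGE and is required for the later genes of the programme, among them Sst, Sox6 and Satb1. Cortical interneurons are known to switch Nkx2-1 off as they migrate, while MGE neurons that stay in the subpallium keep it on. Sst encodes somatostatin, the peptide of one of the main MGE interneuron classes, and the products of Npas1, Elfn1 and Calb1 are found in migrating or maturing interneurons.

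Depth lay between 8323531 and 11069437 counts assigned to genes per library, and the 8 genes together took 0.295 to 0.386% of them. Levels are given as CPM, a gene's count relative to the scaled size of its library, as mean ± SD over n = 3 libraries per genotype. For Zeb2 itself, WT libraries had 6468 (K77), 5350 (K79) and 8094 (K80) counts and KO libraries 2856, 2759 and 3391, so each KO library was below each WT library. The library labelled WT K79 stood apart from the other WT libraries, with 26109 Xist counts against 13 to 28 in each other library. The Y-linked genes Ddx3y, Eif2s3y, Kdm5d and Uty had 3, 0, 2 and 1 counts in WT K79, against 310 or more in each other library. By these counts WT K79 was from female cells and each other library from male cells. WT K79 also had 513 CPM of Zeb2, the WT value nearest to KO. Summed levels of 6 subpallial GABAergic markers (Dlx1, Dlx2, Dlx5, Gad1, Gad2 and Slc32a1) were 2643 to 3084 CPM in WT and 2945 to 3372 CPM in KO. Of these 6, 1 was called higher and 2 lower, against 3.64% and 2.62% of all genes tested. Of the other cell types, 10 cortical glutamatergic markers summed to 236 to 513 CPM in WT and 266 to 340 in KO, 13 endothelial and pericyte markers to 36.3 to 64.6 and 31.4 to 57.6, and 8 microglial markers to 3.36 to 4.47 and 3.35 to 4.21. For 8 erythroid markers the sums were 17.8 to 30.7 and 9.79 to 23.3 CPM, with Hba-a1 and Hba-a2 at 0 in every library. The 6 oligodendrocyte precursor markers, among them Pdgfra, Sox10, Cspg4, Olig1 and Gpr17, moved with genotype, from 88.2 to 97.3 CPM in WT down to 30.7 to 33.1 in KO. Of these markers 5 of 6 were called lower, against 2.62% of all genes tested. Their part in the results for the 8 genes was not tested.

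In KO cells Nkx2-1 rose 1.63-fold and Sox6 1.27-fold, Npas1, Elfn1 and Calb1 fell to between 0.484 and 0.675 of their WT levels, and Lhx6, Sst and Satb1 were not called. Of the 8 genes, 2 were higher and 3 lower at an adjusted p under 0.05 in edgeR, where 6.27% of the 13835 genes tested were called, 3.64% higher and 2.62% lower. The median log2 fold change of the 8 was -0.03, close to the -0.01 of all genes tested, while the median size without sign was 0.46 against 0.12. The libraries of the 2 genotypes did not overlap for 5 of the 8, against 23.2% of all genes tested. The same 5 were called when the K number entered the fit as a block, against 10.6% of all genes tested. Leaving out KO K80 removed the calls of Sox6 and Elfn1 and left 3. In sorted cells measured in bulk, fewer cells expressing a gene and less of its RNA per cell cannot be told apart.

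**Figure D1:**
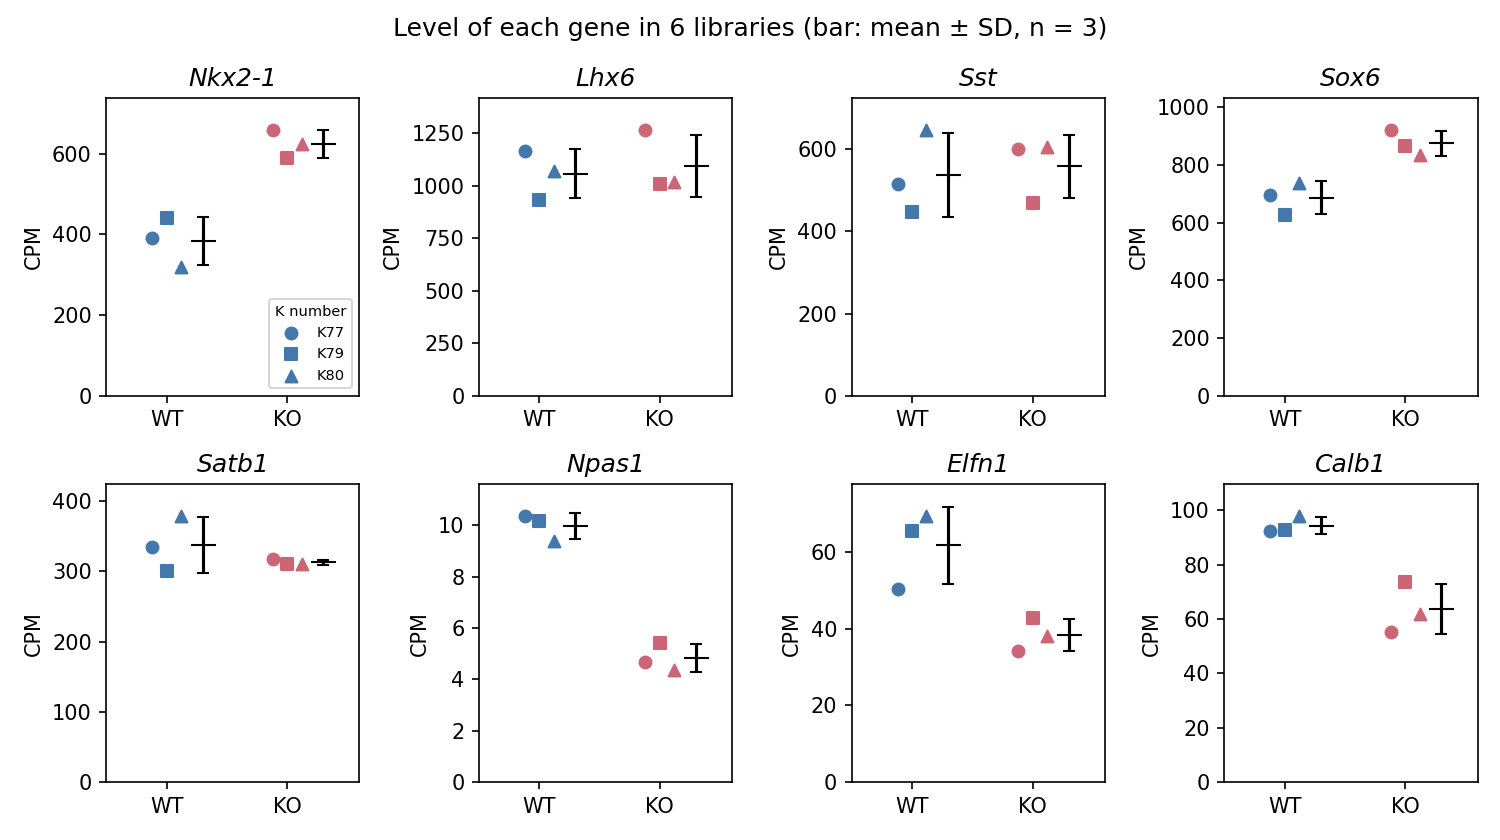
CPM of the 8 genes in each library, with a vertical axis from 0 for each gene, WT in blue, KO in red, a marker shape for each K number, and bars for mean ± SD (n = 3). Nkx2-1 and Sox6 are higher in each KO library than in any WT library, Npas1, Elfn1 and Calb1 are lower, and the genotypes overlap for Lhx6, Sst and Satb1.

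Zeb2 and its relatives bind the letters CACCT, and the bases upstream of the annotated starts were read for them. RefSeq promoter windows (GRCm38.p6) were matched for 7 of the 8 genes, 18 windows in all, and the 250 bases upstream of each start were searched. The starts of Nkx2-1, which rose, and Elfn1, which fell, are shown 5′ to 3′ on the gene's strand, with each CACCT and its other-strand form AGGTG in capitals. Sst, which was not called, is shown with its cyclic AMP response element TGACGTCA in capitals, the site known to drive this gene. The windows are chr12:56536909-56537158 (minus strand) for Nkx2-1, chr5:139907616-139907865 (plus strand) for Elfn1 and chr16:23890845-23891094 (minus strand) for Sst.
Nkx2-1: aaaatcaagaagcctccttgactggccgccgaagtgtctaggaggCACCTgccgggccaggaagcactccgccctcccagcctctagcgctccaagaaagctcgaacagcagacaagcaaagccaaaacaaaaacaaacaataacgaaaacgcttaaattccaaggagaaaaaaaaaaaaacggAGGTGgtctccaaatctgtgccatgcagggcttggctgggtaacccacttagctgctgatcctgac
Elfn1: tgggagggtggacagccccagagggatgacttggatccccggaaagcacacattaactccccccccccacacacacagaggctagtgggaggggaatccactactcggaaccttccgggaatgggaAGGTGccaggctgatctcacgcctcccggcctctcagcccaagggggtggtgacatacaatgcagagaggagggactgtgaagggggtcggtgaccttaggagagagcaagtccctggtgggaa
Sst: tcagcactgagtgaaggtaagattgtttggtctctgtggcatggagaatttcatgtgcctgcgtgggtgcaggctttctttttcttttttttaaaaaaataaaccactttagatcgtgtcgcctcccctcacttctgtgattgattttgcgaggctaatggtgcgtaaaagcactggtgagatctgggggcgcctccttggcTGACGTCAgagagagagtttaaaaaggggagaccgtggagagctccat
Nkx2-1 has matches that begin 205 and 66 bases before the start, the first of them part of the longer form CACCTG, and Elfn1 has 1 match at 124 bases. Of the 18 windows 7 held CACCT on either strand, in windows of Nkx2-1, Sox6, Satb1 and Elfn1, against 46% of all 32851 windows of the same length. Of the 3 Satb1 windows among them, 2 overlap each other and share 1 match, so this site is counted in both. Those 4 genes include some that rose, fell or were not called, and the windows of Lhx6, Sst and Npas1 held no match. The homeodomain letters TAATTA were in none of the 18 windows and in 4.84% of all, and TGACGTCA, read in the same way on either strand, was in the Sst window and in 1.55% of all. The NK2-type letters TNAAGTG or, on the other strand, CACTTNA, were in 1 window of Lhx6, 3 of Sox6 and the 1 of Sst, and in 10.1% of all.

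Nkx2-1, at the head of the programme, was raised in KO cells. Its level was 392, 440 and 320 CPM in WT K77, K79 and K80 and 659, 590 and 625 CPM in KO K77, K79 and K80. The lowest KO library lay well above the highest WT library, which was the Xist-bearing WT K79, and the WT spread was wider than the KO spread (coefficient of variation 15.7% against 5.58%). The mean went from 384 ± 60.3 to 625 ± 34.8 CPM, which edgeR fitted as 0.70 on the log2 scale (SE 0.103, adjusted p = 0.00301), and the gene was called without each of the 6 libraries in turn (0.58 to 0.81). Within K numbers the KO library exceeded its WT partner by 0.75 in K77, 0.42 in K79 and 0.96 in K80 on the log2 scale. Without both K79 libraries the log2 fold change was 0.86 (edgeR adjusted p = 0.00294). Whether the driver construct adds reads to the counts of Nkx2-1, and so to its level per exon length and its ratios to Lhx6 and Sst, was not tested.

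Lhx6, the next step of the programme, was not called (log2 fold change 0.05, edgeR adjusted p = 0.852). The WT libraries had 1166, 933 and 1073 CPM and the KO libraries 1266, 1006 and 1016 CPM, in the order K77, K79 and K80. Both ranges overlap over most of their length. The 95% interval of the fitted log2 difference ran from -0.18 to 0.28. A rise as large as that of Nkx2-1 lies outside it, whereas changes between those bounds, in either direction, do not.

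Sst, the peptide gene of the programme, varied more among the libraries of each genotype (537 ± 102 CPM in WT, 558 ± 77.3 in KO) than between the genotype means. WT K77, K79 and K80 held 517, 447 and 647 CPM, and the KO libraries held 601, 469 and 605 CPM. The K79 library was the lowest in each genotype. Its fitted log2 difference was 0.06 (edgeR adjusted p = 0.881), with a 95% interval from -0.25 to 0.36, wider than that of Lhx6.

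Sox6, which encodes an SRY-box factor that acts after Lhx6 in positioning and maturing these neurons and is also present in oligodendrocyte precursors, rose by a small amount. Its levels were 697, 625 and 738 CPM in WT K77, K79 and K80 and 922, 868 and 835 CPM in the KO libraries. The groups did not overlap, though the gap between WT K80 and KO K80 was narrow. Its fitted change was 0.35 in log2 units (SE 0.072, edgeR adjusted p = 0.0183, and 0.00766 with the K number as a block). Omitting any single library other than WT K79 and WT K80 took the call away (edgeR adjusted p 0.0536 to 0.0694), as did omitting both K79 libraries (0.0698), with log2 fold changes of 0.30 to 0.38 in those fits.

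Satb1, a chromatin organiser needed for the maturation of Sst neurons, was not called. WT levels of 334, 300 and 379 CPM enclosed the KO levels of 318, 311 and 311 CPM. The coefficient of variation was 1.24% over the KO libraries and 11.7% over WT. Its fitted log2 difference was -0.11 (edgeR adjusted p = 0.547), with a 95% interval from -0.29 to 0.07.

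Npas1, Elfn1 and Calb1, the last genes of the set, fell. Npas1, which encodes a basic helix-loop-helix PAS repressor, was at 10.4, 10.2 and 9.40 CPM in WT K77, K79 and K80 and at 4.69, 5.43 and 4.35 CPM in KO, from 95 to 106 counts in a WT library and 39 to 55 in a KO library. The KO library was lower than its WT partner in each pair, by log2 differences of -1.14, -0.91 and -1.11 in K77, K79 and K80. In edgeR the fitted value was -1.05 (SE 0.159, adjusted p = 0.00352), and Npas1 was called without each of the 6 libraries in turn (-1.15 to -0.97).

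Elfn1 encodes a transmembrane protein that sets release properties at synapses onto somatostatin interneurons. It stood at 50.5, 65.6 and 69.5 CPM in WT K77, K79 and K80 and at 34.3, 42.7 and 38.1 CPM in KO. K77, of both genotypes, gave the lowest value, and no KO library reached the lowest WT library. In log2 units the fitted change was -0.69 (SE 0.126, edgeR adjusted p = 0.00968, and 0.000644 with the K number as a block). Without KO K80 the change was -0.68 and the call was lost (edgeR adjusted p = 0.0567).

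Calb1, the calcium-binding protein calbindin, long used to see interneurons on their way to the cortex, was even across WT libraries at 92.5, 92.6 and 97.9 CPM. The KO libraries had 55.2, 73.6 and 62.0 CPM. All 3 KO values lay below WT, and KO K79 was the nearest to it. Calb1 had a fitted log2 change of -0.57 (SE 0.0977, edgeR adjusted p = 0.00705), and the gene was called without each of the 6 libraries in turn (-0.69 to -0.48). In the authors' deposited table the same 5 of the 8 genes were called, with log2 fold changes of 0.70 for Nkx2-1, 0.35 for Sox6, -1.05 for Npas1, -0.69 for Elfn1 and -0.57 for Calb1.

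**Figure D2:**
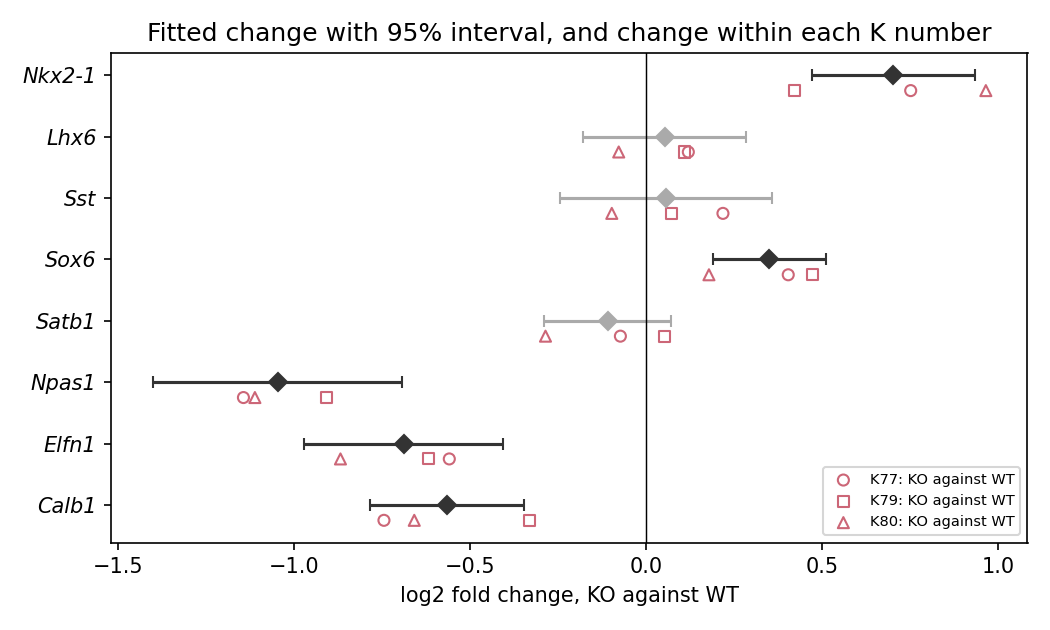
Log2 fold change of KO against WT on the horizontal axis for each gene, as the fitted value with its 95% interval (diamonds, dark where the adjusted p is under 0.05) and as the difference between the KO and WT library of each K number (open symbols). The intervals of Lhx6 (-0.18 to 0.28), Sst (-0.25 to 0.36) and Satb1 (-0.29 to 0.07) include 0, and the 3 open symbols of each called gene lie on 1 side of 0.

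The balance between the genes inside a library does not need scaling between libraries. For each Lhx6 count, Nkx2-1 had 0.336 (K77), 0.472 (K79) and 0.299 (K80) counts in WT libraries and 0.521, 0.586 and 0.615 in the KO libraries. All KO ratios exceeded the highest WT ratio, that of WT K79. The ratio of Sst to Lhx6 was 0.443, 0.479 and 0.603 in WT and 0.475, 0.466 and 0.595 in KO, with K80 the highest in each genotype and a mean log2 difference of 0.01. Relative to Lhx6, Sox6 gained 0.30 on the log2 scale, Satb1 differed by -0.15 with overlapping groups, and Calb1 fell by 0.63, Elfn1 by 0.73 and Npas1 by 1.10. Sst counts exceeded Nkx2-1 counts in each WT library (1.32, 1.01 and 2.02 per Nkx2-1 count in K77, K79 and K80). They were below Nkx2-1 counts in each KO library (0.911, 0.795 and 0.968). These counts are not divided by exon length (721 bases for Sst and 2842 for Nkx2-1 in GENCODE M21), so the ratios do not rank the genes by transcript level.

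**Figure D3:**
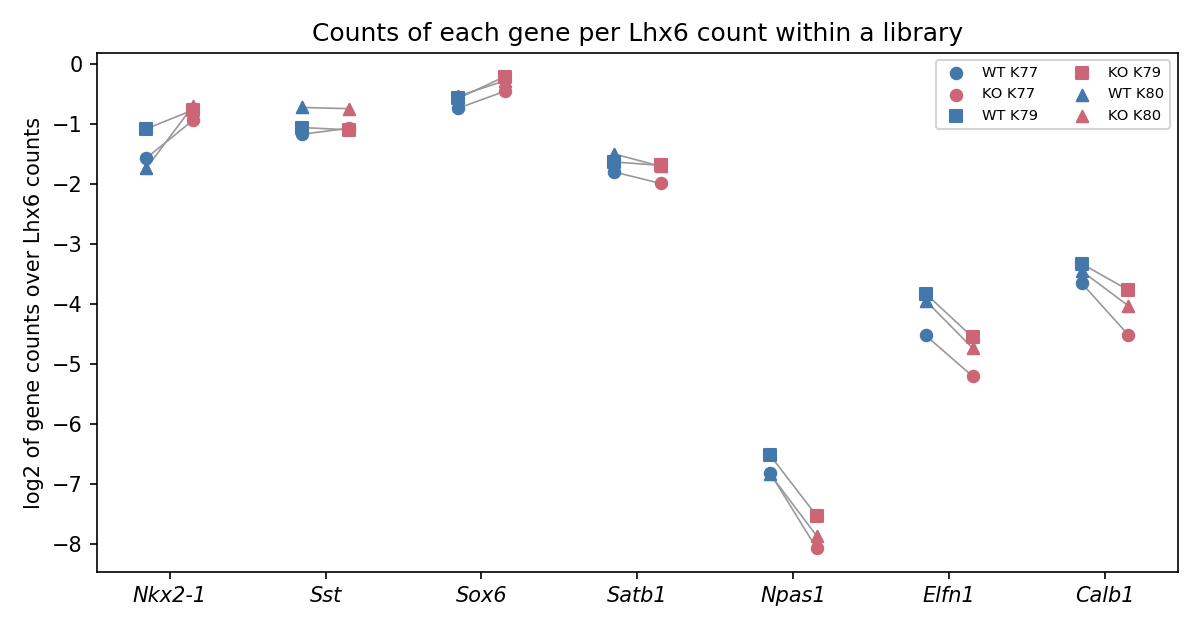
Log2 of each gene's counts over Lhx6 counts in the same library (vertical axis), WT in blue and KO in red, with lines joining the libraries of a K number. The lines for Sst are nearly flat (mean difference 0.01), those for Nkx2-1 and Sox6 go up, and those for Npas1, Elfn1 and Calb1 go down.

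Levels of different genes were compared per kilobase of exon, taking exon lengths from GENCODE M21, which is of a later build than the mm9 named in the submitters' processing notes. In WT the order was Sst (745 ± 141 CPM per kb), Lhx6 (220 ± 24.3), Nkx2-1 (135 ± 21.2), Sox6 (46.3 ± 3.85), Calb1 (19.5 ± 0.635), Satb1 (17.7 ± 2.07), Elfn1 (14.8 ± 2.40) and Npas1 (3.32 ± 0.169). The libraries of Calb1 and Satb1, and those of Satb1 and Elfn1, overlapped, so their order is not set beyond the spread, and the other neighbours were apart. In KO cells Nkx2-1 reached 220 ± 12.3 CPM per kb and overlapped Lhx6 at 228 ± 30.7, while Sst stayed above both at 774 ± 107. With the shorter exon lengths of the GENCODE basic transcript set Lhx6 had 296 CPM per kb in KO against 220 for Nkx2-1, and Satb1 (29.4 in WT) stood above Calb1 (22.3), so both of these comparisons depend on the transcript models. Of the genes that overlap the 8 in GENCODE M21, n-R5s151 within Npas1 is the one with a row in the count table, and it had 0 counts in each library.

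Closest relatives and partners of the 8 genes were looked at next. Of 20 such genes 17 were tested, 4 fell and 13 were not called, and the median log2 fold change was -0.09. Over all genes tested 2.62% fell, and the median was -0.01. The 4 were Npas3, the paralogue of Npas1, Elfn2, the paralogue of Elfn1, Calb2, the calretinin gene related to Calb1, and Arnt2, whose product pairs with PAS proteins such as Npas1. Npas3 fell from 81.2 ± 7.63 to 55.3 ± 1.49 CPM (log2 fold change -0.55, edgeR adjusted p = 0.0029). Calb2 was low, at 6.87, 5.66 and 5.70 CPM in WT K77, K79 and K80 and 3.01, 2.07 and 1.72 in KO (-1.44, edgeR adjusted p = 0.00541). The call of Elfn2 (-0.41, edgeR adjusted p = 0.0313) depended on each library other than WT K79, reaching 0.102 when 1 of them was omitted. That of Arnt2 (-0.34, edgeR adjusted p = 0.0267) depended on each KO library, reaching 0.128, so that 2 of the list were called when any KO library was omitted. With the K number as a block 8 were called, 2 higher and 6 lower, against 10.6% of all genes tested.

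No tested relative of Lhx6, Sst or Sox6 was called in the unblocked fit. Lhx8, the paralogue of Lhx6 that marks cholinergic and other subpallial neurons, had 111, 208 and 132 CPM in WT K77, K79 and K80 and 230, 240 and 219 CPM in KO. The groups did not overlap, and WT K79 was near KO. The log2 fold change of Lhx8 was 0.61 (edgeR adjusted p = 0.0852), while the blocked fit called it (0.0098), as did the fit that omitted WT K79 (0.92, adjusted p = 0.000215). The Sox6 relatives Sox5 (0.02) and Sox13 (-0.05) and the Sst relative Cort (-0.30, at 2.40 ± 1.33 CPM in WT) were not called in edgeR. Nkx2-4, the nearest relative of Nkx2-1, had 0 counts in each library, and Nkx2-2 was too low to test. Somatostatin receptor genes Sstr1 (-0.34), Sstr2 (0.61), Sstr3 (-0.29) and Sstr4 (0.35) were not called, although Sstr1 was with the block (edgeR adjusted p = 0.0451). Grm7, whose receptor protein is bound by Elfn1, had a log2 difference of 0.55 (edgeR adjusted p = 0.16, and 0.0453 with the block), and Arnt a difference of -0.23 (0.151, and 0.0438 with the block).

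Genes that act before or beside Nkx2-1 in progenitors included 3 that rose. Of 15 tested, 3 were higher, Gsx2 and Otx2 among them, and 12 were not called, with a median log2 fold change of 0.33. The share called higher over all genes tested was 3.64%. Gsx2, a homeobox factor of ventral progenitors, rose by 0.80 on the log2 scale (edgeR adjusted p = 0.0171, and 0.0513 without KO K77), and Otx2, a homeobox factor of the rostral and ventral MGE, by 1.71 (0.0461, and up to 0.184 without WT K77, WT K80, KO K79 or KO K80). The sonic hedgehog gene Shh, which induces Nkx2-1, differed by 0.68 at 6.02 ± 3.51 CPM in WT and 9.62 ± 2.26 in KO (edgeR adjusted p = 0.354). With the K number as a block 5 of the list were called, 4 higher and 1 lower, against 10.6% of all genes tested.

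Other genes of MGE interneurons included larger fold changes than those of the 8. Among 30 tested there were 14 that fell, 4 that rose and 12 not called, with a median log2 fold change of -0.32. Of all genes tested 2.62% fell and 3.64% rose. With the K number as a block 20 were called, 6 higher and 14 lower, against 10.6% of all genes tested. Maf (-3.07) and Cux2 (-1.82), transcription factor genes, fell and Chodl, a marker of a subset of somatostatin neurons, rose by 1.99, each of these 3 called without each library in turn. Chodl had 3.16, 3.93 and 3.42 CPM in WT K77, K79 and K80 and 14.4, 12.4 and 15.1 CPM in KO, a rise beside an Sst level that was not called as changed. Genes of subpallial and striatal fates had a median of 0.52, and 4 of 13 rose, against 3.64% of all genes tested, while 9 were not called. Among them were Lmo3 (0.52), Gbx1 (0.64) and Isl1 (0.96). Each of these 3 lost the call without 1 or more libraries, KO K80 among them (edgeR adjusted p up to 0.0938, 0.0957 and 0.153). The number called in that list was 1 without WT K77, WT K80 or KO K77, and 2 without KO K79 (1 higher, 1 lower). By edgeR it was 0 without KO K80 (7 at an unadjusted p under 0.05, where 14.0% of the 14001 genes tested in that fit also were). It was 7 without WT K79 and 8 with the block (7 higher, 1 lower), where 10.6% of all genes tested were called. The lower gene was Ngfr, with a blocked log2 fold change of -0.79 (edgeR adjusted p = 0.0162).

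**Figure D4:**
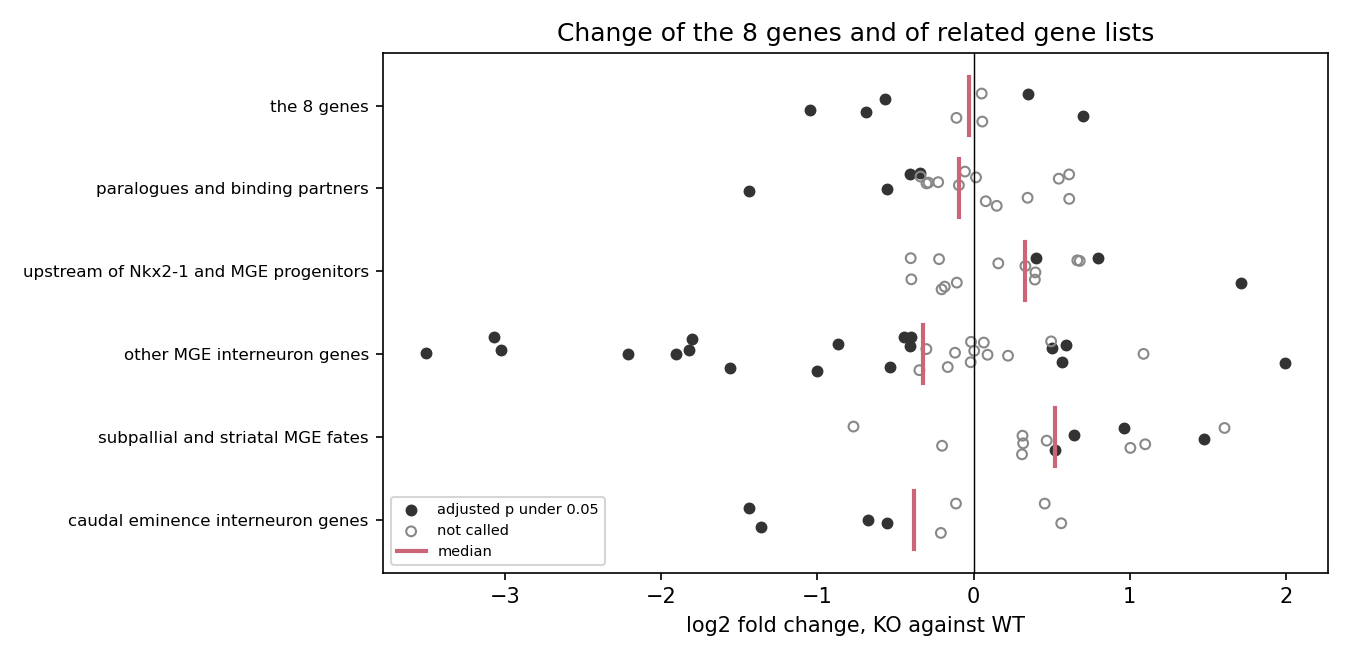
Log2 fold change of KO against WT (horizontal axis) for the 8 genes and 5 related lists, 1 point per tested gene, filled where the edgeR adjusted p is under 0.05, with the median of each list as a red line. The points of the 8 genes run from -1.05 to 0.70, and those of other MGE interneuron genes from -3.50 to 1.99.

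The genes most like each of the 8 in their pattern over the 6 libraries were found by the root mean square difference of centred log2 CPM, among 11032 genes with a mean of at least 5 CPM. Since the match was made over these same libraries, the nearest genes have similar fold changes by construction. Nearest to Nkx2-1 were Robo1 (0.0668), a guidance receptor gene, and Nuak2 (0.0736), whose log2 fold changes were 0.71 and 0.78. For Elfn1 they were Chl1 (0.0328), which encodes a cell adhesion molecule, and Creg1 (0.0808), at -0.63 and -0.71. Creg1 was not called (edgeR adjusted p = 0.0578). For Npas1 the distances were larger, with Adamts5 at 0.102 and Smad3 at 0.12. Nearest to Satb1 was Nrxn3 (0.0185), a presynaptic neurexin gene, then Tspan5 (0.0245). Calb1 was nearest to Rfwd3 (0.0716) and Ston1 (0.0796), neither of them called (edgeR adjusted p = 0.0866 and 0.226). Sox6 was nearest to BC057022 (0.0438) and Fam65b (0.0452). Among 82 genes of the lists themselves, Gsx2 was nearest to Nkx2-1 (0.12), Dlx2 to Lhx6 (0.062), Dlx1 to Sst (0.121), and Npas3 to both Elfn1 (0.137) and Calb1 (0.126). Among all genes, Lhx6 was nearest to Crtc2 (0.0348) and Zfp458 (0.0381), and Sst to 1810009A15Rik (0.0442) and Arl16 (0.0474).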

How the data were processed

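RNA of 6 libraries, 3 WT and 3 KO, was made from 100 ng of total RNA each with 15 PCR cycles and read over 36 cycles, per the labels' protocols. Listed in the submitters' processing notes, without roles, are mm9, DESeq 1.2.2, TopHat 1.2.0 and HTSeq 0.5.3p3. Not given in the sources used here are the strand setting and gene models of the counting. The deposited files hold raw read counts per gene, and the count table equals the 6 single files. Per the file headers, the authors' deposited table holds the fold change as a plain ratio and as log2, with a raw and an adjusted p-value. Its groups are called A and B and were read as WT and KO, since all 777 calls shared with the fit here have the same sign. Rows without a gene were left out (no feature 19.7 to 21.8% and ambiguous 1.94 to 1.99% of counts).

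Counts were tested in R 4.3.3 with edgeR 4.0.16 (TMM, filterByExpr with a minimum count of 10, quasi-likelihood test, Benjamini-Hochberg over 13835 genes at 0.05, no covariate). The SE is the log2 fold change over the square root of F. Libraries sharing a K number deviated together (correlations across genes 0.256, 0.197 and 0.175), all over 0.1, so the number was taken as pairing them, and a fit with it as a block stands beside results it alters. The main fit, its intervals and the fits with libraries left out do not use this pairing, so calls lost in them were not tested with the block. Whether the libraries are separate embryos is not said in the labels, and the p-values therefore describe the scatter of these 6 libraries. How much of that scatter is technical was not tested. WT K79 differs from the other libraries in sex, as read from Xist and Y-linked counts, so sex is not balanced between the genotypes. The part of sex in the results was not tested. Alternatives were RLE factors, DESeq2 1.42.0, limma 3.58.1 voom, other filters, the block and each library left out, with both K79 libraries left out added after seeing the data. The fit was checked on simulated counts. The 8 genes and the lists were chosen with earlier results of these data known. Named were the 8 genes, their relatives and partners, up to 4 called members of each other list by lowest p, and the nearest patterns. Other named list members were chosen after their values were seen. Some genes that these rules name are not reported here.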

Additional observations from a re-analysis of the deposited data

How the results depend on the processing

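The calls for 5 of the 8 genes, with their direction, held for the same genes under RLE factors, DESeq2, limma voom, no filter, a filter of 1 CPM in 3 libraries and the K number as a block. With 1 library left out, the number of the 8 called was 3 to 5, and the log2 fold change was 0.58 to 0.81 for Nkx2-1, -0.06 to 0.13 for Lhx6, -0.06 to 0.21 for Sst, 0.29 to 0.40 for Sox6, -0.19 to -0.02 for Satb1, -1.15 to -0.97 for Npas1, -0.81 to -0.60 for Elfn1 and -0.69 to -0.48 for Calb1. Without both K79 libraries Sox6 was 0.30 and not called, in a fit with 2 libraries per genotype.

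Counts of lists moved more. With the K number as a block 1463 genes were called in all, 8 among relatives and partners, 5 among upstream and progenitor genes and 8 among subpallial fates. With no filter on low counts the last 2 lists had 5 and 8, and 1288 genes were called in all. With 1 library left out the ranges were 445 to 1044 of all genes, 2 to 5 relatives and partners, 2 to 4 upstream genes, 13 to 19 other interneuron genes, 0 to 7 subpallial genes and 3 to 4 caudal genes. Over all genes, omitting KO K80 gave 445 calls, KO K79 498 and WT K77 528. The causes were not tested. The log2 ratios to Lhx6 moved by less than 1 SD, pooled over both genotypes, when a library was left out, with differences of 0.52 to 0.85 for Nkx2-1 and -0.80 to -0.42 for Calb1. Npas1 rests on 39 to 106 counts per library, and its log2 fold change has the largest SE of the 8 (0.159).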

Other observations

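Genes used to mark interneurons of the caudal ganglionic eminence, which overlap with the relatives of the 8 genes in Npas3 and Calb2, were lower in 4 of 8 tested, and 4 were not called. Among all genes tested 2.62% were called lower. Nr2f1, an orphan nuclear receptor gene, was at 285, 204 and 228 CPM in WT K77, K79 and K80 and at 149, 152 and 146 CPM in KO (log2 fold change -0.68, edgeR adjusted p = 0.004). Its relative Nr2f2 (-0.11) and Prox1 (-0.21), a homeobox gene of that lineage, were not called. Sp8 (0.46) and Scgn (0.56, at 1.44 ± 0.496 CPM in WT) had positive log2 differences and were not called either. Htr3a, a serotonin receptor gene, fell by 1.36 on the log2 scale (edgeR adjusted p = 0.0243), a call lost without WT K80, KO K79 or KO K80 (up to 0.0631).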
